A study of Mus musculus with 2 samples.

Results

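The genes described here were 10 isoform genes of the contractile apparatus of skeletal muscle, chosen by symbol out of the 32285 genes of the count tables and not by a cutoff on a measured value. Earlier results of these data were known when they were chosen. The 4 slow members were the myosin heavy chain Myh7 and the troponin genes Tnnt1, Tnni1 and Tnnc1. The 6 fast members were the myosin heavy chains Myh2, Myh1 and Myh4 and the troponin genes Tnnt3, Tnni2 and Tnnc2. All 10 were found in both tables, and all 10 were followed in 2 places: in barcodes rich in muscle fiber transcripts and, as fiber RNA found in other cells, in marker-defined cell types.

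To ask what stimulated retinoic acid signaling does in aged muscle, the study compared 2 droplet libraries of hindlimb muscle from female C57Bl/6J mice aged 24 months. The ATRA+agonist mice had received 3 injections into tibialis anterior, gastrocnemius and quadriceps within a week, carrying ATRA (all-trans retinoic acid, the natural ligand) together with CD3254, which activates RXR-alpha, and BMS961, which activates RAR-gamma, whereas the DMSO vehicle mice had received the solvent in the same way. Each library pooled cells of 2 mice, which cannot be told apart here, so that there was 1 library per group, no replicate and no test, and each difference below is one between 2 libraries. Quadriceps and gastrocnemius had been digested to a cell suspension and sorted on propidium iodide for live cells, a preparation that is not made to keep whole fibers.

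A muscle fiber builds its sarcomere from one of several versions of each contractile protein. Myosin heavy chain is the motor whose version sets how quickly a fiber shortens: Myh7 encodes the slow type I chain, Myh2 the fast type IIA chain, Myh1 the IIX chain and Myh4 the IIB chain. The troponin complex switches contraction on with calcium, and each of its parts has a slow and a fast skeletal gene: troponin C binds calcium (slow Tnnc1, fast Tnnc2), troponin I holds contraction off at rest (slow Tnni1, fast Tnni2) and troponin T anchors the complex to tropomyosin (slow Tnnt1, fast Tnnt3). Mouse hindlimb muscles are mostly fast, with IIB fibers abundant in quadriceps and gastrocnemius, and adult fibers often carry a mixture of neighboring fast myosins.

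By position on GRCm38, the 3 fast myosin genes lie in a row on the plus strand of chromosome 11, Myh2 at chr11:67171027-67197517, Myh1 at chr11:67200052-67224575 and Myh4 at chr11:67238029-67260446. Myh7 lies at chr14:54970684-54994626 on the minus strand and Tnnc1 at chr14:31208312-31211729 on the plus strand. Tnnt3 (chr7:142498836-142516009) and Tnni2 (chr7:142441808-142444410) share a strand of chromosome 7 with the leukocyte gene Lsp1 between them, and Tnnt1 lies on the minus strand of the same chromosome at chr7:4504570-4516382. Tnni1 lies at chr1:135779434-135810989 and Tnnc2 on the minus strand at chr2:164777161-164779967.

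The windows before the starts of the 3 fast myosins and the 3 slow troponins are shown because each of these groups is described below by which of its genes shared a barcode. They are RefSeq windows on GRCm38.p6, written 5′ to 3′ on the strand of the gene, and they end at the base before the RefSeq start, except that the window of Myh1 was ended 50 bases earlier, where GENCODE M21 begins an exon. RefSeq windows were at hand for 8 of the 10 members. The last 29 bases shown for Tnnt1 and the last 19 for Tnni1 also lie in an exon of GENCODE M21. Capitals mark matches on either strand to the TATA box word TATAAA, to the word CATTCC of the MCAT element and to the E box word CAGCTG and, in the myosins, the longest run of bases that all 3 windows share.

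Myh2 (chr11:67170777-67171026, plus strand): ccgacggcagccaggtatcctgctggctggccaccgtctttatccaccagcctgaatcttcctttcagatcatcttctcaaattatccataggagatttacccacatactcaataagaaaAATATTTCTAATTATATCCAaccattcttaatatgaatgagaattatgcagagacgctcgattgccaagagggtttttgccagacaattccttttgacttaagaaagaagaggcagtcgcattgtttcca
Myh1 (chr11:67199852-67200051, plus strand): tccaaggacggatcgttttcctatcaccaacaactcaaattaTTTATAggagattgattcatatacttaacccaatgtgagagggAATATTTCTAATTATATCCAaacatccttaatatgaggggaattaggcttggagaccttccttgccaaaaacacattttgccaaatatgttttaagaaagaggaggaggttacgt
Myh4 (chr11:67237562-67237811, plus strand): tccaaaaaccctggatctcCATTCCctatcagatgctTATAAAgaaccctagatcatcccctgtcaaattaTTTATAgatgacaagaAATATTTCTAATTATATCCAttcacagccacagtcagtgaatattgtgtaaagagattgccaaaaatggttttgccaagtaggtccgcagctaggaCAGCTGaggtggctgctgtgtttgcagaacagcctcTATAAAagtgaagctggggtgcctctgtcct
Tnnt1 (chr7:4515976-4516225, minus strand): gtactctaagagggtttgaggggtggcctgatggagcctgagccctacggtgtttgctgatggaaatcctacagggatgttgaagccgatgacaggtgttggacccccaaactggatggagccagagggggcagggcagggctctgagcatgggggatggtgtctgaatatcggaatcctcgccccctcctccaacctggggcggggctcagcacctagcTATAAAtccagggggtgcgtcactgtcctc
Tnni1 (chr1:135799171-135799420, plus strand): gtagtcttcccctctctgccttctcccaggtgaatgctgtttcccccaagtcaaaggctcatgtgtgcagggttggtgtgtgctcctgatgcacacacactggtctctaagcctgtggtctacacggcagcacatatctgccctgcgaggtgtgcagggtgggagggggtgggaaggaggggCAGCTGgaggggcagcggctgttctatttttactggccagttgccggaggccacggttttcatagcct
Tnnc1 (chr14:31208062-31208311, plus strand): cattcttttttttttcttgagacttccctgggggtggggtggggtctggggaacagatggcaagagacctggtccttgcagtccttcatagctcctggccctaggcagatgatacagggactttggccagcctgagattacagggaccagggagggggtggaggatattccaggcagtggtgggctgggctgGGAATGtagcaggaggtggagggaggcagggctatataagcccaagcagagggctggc

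The shared run of the 3 fast myosins, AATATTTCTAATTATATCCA, is 20 bases long and began 130 bases before the start of Myh2, 165 before that of Myh1 and 163 before that of Myh4. Of 32851 RefSeq windows of the same length, 3 held it, those of these same genes. Aligned at the run without gaps, the windows were identical at 42.3% of bases between Myh2 and Myh1, 34.3% between Myh1 and Myh4 and 32.3% between Myh2 and Myh4. TATAAA stood 30 bases before the start of Tnnt1 and 31 before that of Myh4, CAGCTG 68 bases before Tnni1 and 67 before Myh4, and CATTCC on the minus strand 58 bases before Tnnc1. These 6-letter words were also common elsewhere, in 12.4% (TATAAA), 12.6% (CATTCC) and 13% (CAGCTG) of all windows, so that a match describes letters and not a used site.

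To find fiber material without using the members, barcodes were taken as fiber-rich where at least 20 UMIs (unique molecular identifiers, which count captured RNA molecules) and at least 5% of all UMIs came from 10 isoform-neutral fiber genes, which fibers of all types use (Acta1, Ckm, Ttn, Neb, Tcap, Cox6a2, Klhl41, Trdn, Actn2 and Cmya5). This held for 264 of 10444 ATRA+agonist barcodes (2.53%, 95% interval 2.24 to 2.85) and for 83 of 17394 DMSO vehicle barcodes (0.477%, 0.380 to 0.591). The libraries held 65197625 and 109343486 UMIs, of which the fiber-rich barcodes took 383311 and 116626. Fiber-rich barcodes were shallow, with a median of 972.5 UMIs (range 504 to 8585) in the ATRA+agonist library and 1105 (501 to 7402) in the DMSO vehicle library. The share of barcodes depends on who else was captured: 8125 DMSO vehicle barcodes and 2314 ATRA+agonist barcodes were red blood cells by a hemoglobin share of at least 50%. Of the member UMIs, 81.9% of 38847 (ATRA+agonist) and 67.7% of 15008 (DMSO vehicle) lay in fiber-rich barcodes.

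The fiber-rich barcodes held the transcripts that their label names and few of other cells. Acta1 and Ckm, the actin and the creatine kinase of skeletal muscle and part of the rule, were found in every one. Endothelial markers, the most abundant of 10 other classes in the ATRA+agonist fiber-rich barcodes, summed to 44 UMIs there and 15 in those of the DMSO vehicle, and smooth muscle or pericyte markers to 21 and 20. Of the 9 endothelial markers 1 and 2 were at 0, and of the 8 smooth muscle or pericyte markers 5 and 2. The libraries differed in hemoglobin, whose median share was 0.116% and 0.380%, and the study's own limits on genes, mitochondrial and hemoglobin transcripts would keep 196 of the 264 ATRA+agonist but 34 of the 83 DMSO vehicle fiber-rich barcodes. Barcodes just inside the 5% threshold (up to 6%) numbered 26 and 7, and those just outside it (from 4%) 18 and 7. The libraries shared 43 barcode sequences, of which 1 was fiber-rich, in the ATRA+agonist library.

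Fast troponins dominated the fiber-rich barcodes of both libraries. Levels are in CPM, UMIs per 1000000 UMIs of the fiber-rich barcodes, and since reads were counted at the 3′ end these values do not scale with gene length. Tnnt3 stood at 29590 CPM (95% Poisson interval 29048 to 30139) in ATRA+agonist and 30079 (29092 to 31091) in DMSO vehicle barcodes. Tnnc2 stood at 29524 (28983 to 30073) and 28656 (27692 to 29644), and Tnni2 at 18465 (18038 to 18901) and 20373 (19562 to 21209). Among all genes Tnnt3 ranked 4 and Tnnc2 5 in both libraries, and Tnni2 ranked 8 and 7. By single barcodes, Tnnt3 ranged from 0 over a median of 28 UMIs to 243 in the ATRA+agonist library and from 0 over 32 to 187 in the DMSO vehicle library. Of the 264 and 83 barcodes, 255 and 77 held a Tnnt3 UMI, 256 and 77 a Tnni2 UMI and 257 and 81 a Tnnc2 UMI, so that a few barcodes lacked them.

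**Figure D1:**
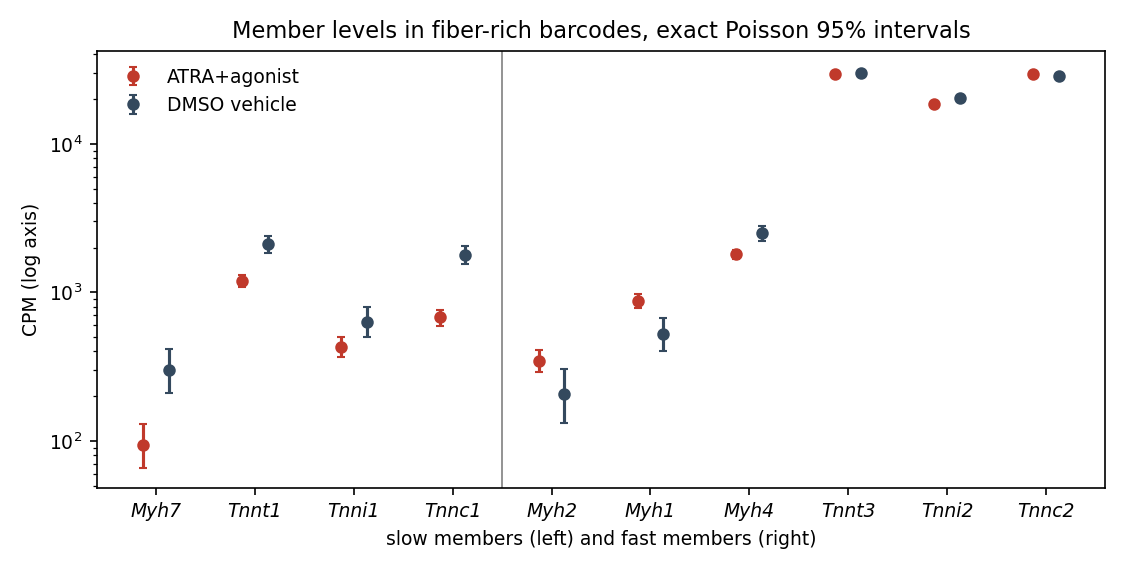
Level of each member in the fiber-rich barcodes of both libraries, in CPM on a log axis, with slow members left and fast members right of the line and exact 95% Poisson intervals as bars. The 3 fast troponins sit between 18465 and 30079 CPM in both libraries, and the 4 slow members and the fast myosins lie lower, between 93.9 and 2495 CPM.

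The slow members were lower and sat in few barcodes. Tnnt1 stood at 1187 CPM (1080 to 1301) in ATRA+agonist and 2101 (1846 to 2381) in DMSO vehicle barcodes, with UMIs in 18 and 7 barcodes. Tnnc1 stood at 678 (598 to 766) and 1783 (1549 to 2043), in 11 and 6 barcodes, and Tnni1 at 430 (367 to 501) and 635 (498 to 797), in 12 and 6. Myh7, the slow motor itself, reached 93.9 CPM (65.8 to 130) from 36 UMIs in 7 barcodes and 300 CPM (209 to 417) from 35 UMIs in 5. Within the slow members the order Tnnt1, Tnnc1, Tnni1, Myh7 was the same in both libraries, and the intervals of neighbors in that order did not overlap, except for Tnnt1 and Tnnc1 in the DMSO vehicle library. A single barcode held 219 of the 455 Tnnt1 UMIs in the ATRA+agonist library, as did another for 118 of the 245 in the DMSO vehicle library.

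The fast myosins had far fewer counts than the fast troponins, and together with Myh7 they made 3.76% and 4.04% of the member UMIs. Myh4 stood at 1800 CPM (1668 to 1940) in ATRA+agonist and 2495 (2217 to 2799) in DMSO vehicle barcodes, Myh1 at 877 (785 to 975) and 523 (400 to 672), and Myh2 at 347 (291 to 411) and 206 (132 to 306). The order Myh4, Myh1, Myh2 thus held in both libraries, with no overlap of the intervals, but in the DMSO vehicle library Myh1 came above Myh4 when Acta1 and Ckm were left out of the isoform-neutral list and the minimum share was set to 1%. The last 1000 transcript bases of the myosins are alike: of their 31-base words, 39.9% in Myh2, 39.2% in Myh1 and 25.9% in Myh4 also occur in another member, against 1.44% in Myh7 and none in the 6 troponins. How reads that fit several of these genes were treated was not given in the sources used here, so that the split among the 3 fast myosins is less certain than that among the troponins.

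To determine how the libraries differed, the CPM of ATRA+agonist was divided by that of DMSO vehicle, with exact 95% intervals that cover counting error only and leave out mice and barcodes. Of the 10 members, 2 were at least 2-fold apart, Myh7 (log2 ratio -1.68, -2.39 to -0.96) and Tnnc1 (-1.39, -1.66 to -1.12), both lower in the ATRA+agonist library. At least 2-fold lower were 6.98% of all 3552 genes with 10 or more UMIs, and at least 2-fold apart in either direction 19%, so that the members' count of 2 lay near the background. Tnnt1 (-0.82) and Tnni1 (-0.56) were lower by less, Myh2 (0.75) and Myh1 (0.74) higher, and Myh4 lower (-0.47). The fast troponins hardly differed, at -0.02 (-0.08 to 0.03) for Tnnt3, 0.04 (-0.01 to 0.10) for Tnnc2 and -0.14 (-0.21 to -0.07) for Tnni2, where the median of all genes was 0.08.

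These slow and myosin ratios depended on a few barcodes. With a threshold of 10% in place of 5% isoform-neutral UMIs, which left 69 and 27 barcodes, the ratio turned to 1.60 for Myh7, 0.93 for Tnnt1, 1.12 for Tnni1, 0.95 for Tnnc1, -0.51 for Myh2 and 0.14 for Myh4. With a threshold of 2% the Myh1 ratio turned to -0.83. Leaving Acta1 and Ckm out of the list (1% threshold) also turned the ratios of Myh1 (-1.63), Tnni1 (0.16) and Tnni2 (0.50). A DMSO vehicle barcode just outside the main threshold, at 4.30% isoform-neutral UMIs, held 196 Myh1 UMIs, more than the 61 of all 83 fiber-rich barcodes of its library together. That barcode had 26453 UMIs, 5002 genes and 48 endothelial marker UMIs, and lay outside the study's limits. No direction between the libraries is therefore drawn for these members.

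The slow share of the members, the slow UMIs over all member UMIs, was 2.88% (2.70 to 3.07) in ATRA+agonist and 5.53% (5.09 to 5.99) in DMSO vehicle fiber-rich barcodes. By troponin pair, the slow gene made 3.86% and 6.53% of Tnnt1 and Tnnt3 together, 2.28% and 3.02% of Tnni1 and Tnni2, and 2.25% and 5.86% of Tnnc1 and Tnnc2. The deepest slow barcode of each library carried 46.6% and 51.8% of all slow member UMIs, and without it the slow share was 1.56% and 2.75%. With the 10% threshold the order of the libraries turned, to 6.28% and 2.90%.

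The slow signal came from single barcodes that were slow almost throughout. All 264 and 83 fiber-rich barcodes had at least 10 troponin UMIs, and a barcode was called slow where Tnnt1, Tnni1 and Tnnc1 made at least 50% of them. This held for 9 of 264 ATRA+agonist barcodes (3.41%, 1.57 to 6.37) and 6 of 83 DMSO vehicle barcodes (7.23%, 2.70 to 15.1), whose intervals overlap. No barcode lay between 20% and 90%: the slow share was 96.5% to 100% in the 9 and 94.4% to 100% in the 6, and it reached at most 11.7% and 15.4% in the others. Of the 916 and 562 slow member UMIs, 845 (92.2%) and 558 (99.3%) sat in these barcodes. Leaving out barcodes with a UMI of Myog, Mymk or Mymx, genes of muscle cells that are differentiating or fusing, left 3.1% and 6.25% slow. Within the study's limits the order of the libraries turned, with 3.57% and 2.94% slow.

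**Figure D2:**
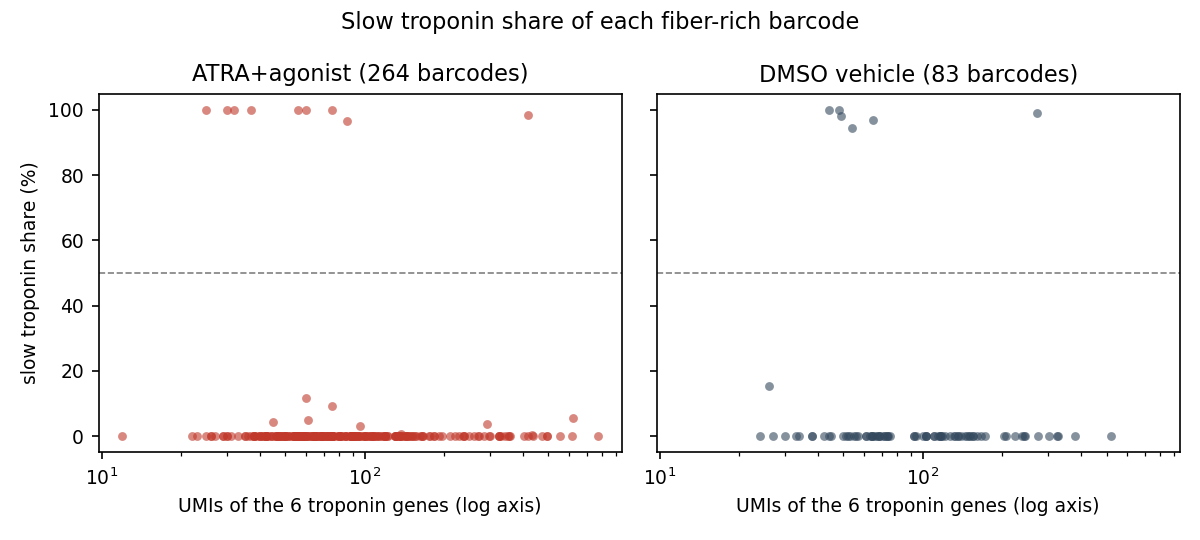
Slow troponin share (%) of each fiber-rich barcode against its UMIs of the 6 troponin genes (log axis), ATRA+agonist left and DMSO vehicle right, with 1 point per barcode and the 50% boundary dashed. The 9 and 6 slow barcodes sit at 94.4% or higher and all others at 15.4% or lower, with none between.

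All 15 slow barcodes held all 3 slow troponins, and they held almost none of the fast ones. The ATRA+agonist slow barcode with the most UMIs (7731) had 219 Tnnt1, 73 Tnni1, 119 Tnnc1 and 16 Myh7 UMIs beside 5 of Tnnc2 and 1 of Tnni2. The deepest DMSO vehicle slow barcode (7402 UMIs) had 118, 38, 113 and 22 beside 3 of Tnnc2. Tnnt1 had the most UMIs of the 3 slow troponins in 7 of the 9 and 4 of the 6 barcodes. The shallowest ATRA+agonist slow barcode (548 UMIs) had 12 Tnnt1, 2 Tnni1, 11 Tnnc1 and 1 Myh7 UMI. Tnnt3 was at 0 in all 15, and Tnni2 in 14. Where a fast member was found in a slow barcode it was mostly Tnnc2, with 8 UMIs in the 9 and 9 UMIs in the 6. Myh7 was found in 7 of 9 and 5 of 6 slow barcodes and in none of the fast ones, and no slow barcode had a UMI of Myh2, Myh1 or Myh4. Relative to fast barcodes, Myh7 was at least 264-fold and 91.2-fold higher, and Tnnt3 at least 172-fold and 150-fold lower, with 3 UMIs set in place of 0. The call used the troponins and not Myh7, so the Tnnt3 value follows in part from the call and is no test of it.

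The converse held in the fast barcodes, for the troponins in part because the call used them. All 255 and 77 of them had all 3 fast troponins, 211 and 62 had a fast myosin, and 246 and 76 had no slow troponin UMI. An exception was an ATRA+agonist barcode of 7633 UMIs with 32 Tnnt1, 2 Tnni1 and 1 Tnnc1 UMIs beside 221 Tnnt3, 142 Tnni2 and 221 Tnnc2 UMIs, in which slow genes made 5.65% of the troponin UMIs and Myh2 (7 UMIs) was the only myosin. Across fast barcodes Tnnt1 summed to 62 UMIs in the ATRA+agonist and 4 in the DMSO vehicle library, a log2 ratio of 2.13 (0.70 to 4.05) that rests on this barcode for 32 of the 62.

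Comparing the libraries within each type removes the number of slow barcodes from the ratio. Within slow barcodes, the log2 ratio of ATRA+agonist over DMSO vehicle was 0.76 (0.36 to 1.18) for Tnni1, 0.37 (0.14 to 0.61) for Tnnt1, -0.02 (-0.29 to 0.25) for Tnnc1 and -0.29 (-1.0 to 0.42) for Myh7. None of the 4 was 2-fold apart, whereas 22.3% of 449 genes were. Within fast barcodes, Myh1 (0.64, 0.24 to 1.05) and Myh2 (0.64, 0.01 to 1.34) were higher and Myh4 lower (-0.58, -0.78 to -0.38), Tnni2 (-0.25), Tnnt3 (-0.13) and Tnnc2 (-0.06) were slightly lower, and none of these 6 was 2-fold apart, whereas 19.5% of 3369 genes were. Tnnt1 was the member past 2-fold there, where 13.1% of genes were at least 2-fold higher. The myosin values carry the dependence on single barcodes given above.

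Among the myosin UMIs of the fiber-rich barcodes, Myh4 made 57.7% (54.9 to 60.6) in the ATRA+agonist library and 70.8% in the DMSO vehicle library, from 1195 and 411 UMIs. Myh1 made 28.1% and 14.8%, Myh2 11.1% and 5.84%, and Myh7 3.01% and 8.52%. With each barcode weighted equally the Myh4 share was 46.6% and 60.1%, and with the 2% threshold the DMSO vehicle shares of Myh1 and Myh4 were 39.7% and 50.8%. Few barcodes were deep enough for a call of their own: 31 and 8 had at least 10 myosin UMIs, of which 22 and 6 were led by Myh4, 6 and 1 by Myh1, 2 and 0 by Myh2 and 1 and 1 by Myh7. In 26 of the 31 and in all 8, the leading myosin held at least 80% of the myosin UMIs.

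Fast myosins shared barcodes with their neighbors in the order IIA, IIX, IIB and with no others. With a minimum of 3 myosin UMIs, chosen after seeing the data, Myh4 led 73 of 141 ATRA+agonist and 27 of 43 DMSO vehicle barcodes, Myh1 45 and 10, Myh2 16 and 3, and Myh7 4 and 2, and in 3 and 1 barcodes myosins tied for the most UMIs and none was taken as leading. Myh1 and Myh4 were found together in 28 and 7 fiber-rich barcodes and Myh2 and Myh1 together in 17 and 6. Myh2 and Myh4 were found together in none, although 46 and 10 barcodes held Myh2 and 114 and 44 held Myh4. Myh7 was found with no fast myosin in either library. The words shared by their transcript ends could place UMIs of 1 fast myosin under another, which was not tested here.

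**Figure D3:**
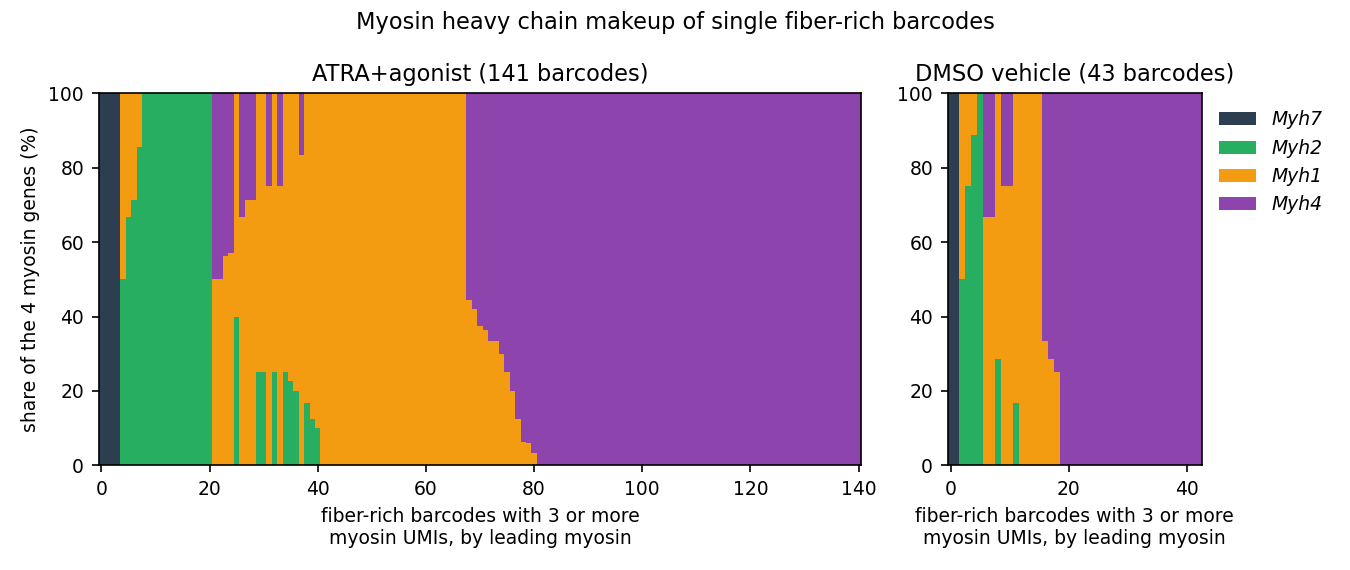
Share (%) of each myosin heavy chain among the UMIs of Myh7, Myh2, Myh1 and Myh4 in every fiber-rich barcode with at least 3 such UMIs, 141 ATRA+agonist barcodes left and 43 DMSO vehicle barcodes right, 1 bar per barcode ordered by leading myosin, with tied barcodes placed under the first of the tied genes. Mixed bars pair Myh2 with Myh1 or Myh1 with Myh4, and no bar pairs Myh2 with Myh4 or Myh7 with another myosin.

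Other genes of the slow and fast programs, listed apart from the members, split between the slow and fast barcodes in the same way. Since the troponin call made both groups, these values describe the split and do not test it. Of 12 slow-program genes 10 had at least 10 UMIs, and 9 of these were at least 2-fold higher in slow barcodes in each library, where 20.1% (ATRA+agonist) and 19% (DMSO vehicle) of all genes were. Myl2, the slow regulatory myosin light chain, stood at 20185 CPM in slow and 115 in fast ATRA+agonist barcodes (log2 7.46, 7.0 to 7.96) and at 17618 and 96.7 in those of the DMSO vehicle (7.51, 6.60 to 8.59). Tpm3, the slow alpha tropomyosin, stood at 18503 and 16.4 CPM in the ATRA+agonist library and was at 0 in the fast DMSO vehicle barcodes, at least 633-fold higher in the slow ones. Myl3, the slow essential light chain, was higher by 4.57 and 7.30, and Atp2a2, the calcium pump of slow fibers, by 6.60 and 5.77. The oxygen carrier Mb was the exception, at 0.54 (0.26 to 0.81) and -0.23 (-0.71 to 0.22). The median over the tested slow genes was 3.34 and 3.07, against 0 over all genes in both libraries.

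Of the 12 fast-program genes, 9 were at least 2-fold lower in the slow ATRA+agonist barcodes and 10 in those of the DMSO vehicle, where 5.45% and 11.4% of all genes were, with genes at 0 set at 3 UMIs. Mylpf, the fast regulatory light chain, stood at 120 CPM in slow and 38507 in fast ATRA+agonist barcodes, and its log2 ratio was -8.32 and, in the DMSO vehicle library, -5.33. Eno3, the muscle enolase of glycolysis, had log2 ratios of -4.48 and -5.08. Actn3, the fast-fiber actinin, and Pvalb, the calcium buffer parvalbumin, had no UMI in any slow barcode and were at least 9.99-fold and 16.1-fold lower in the ATRA+agonist library and at least 8.95-fold and 20.4-fold lower in the DMSO vehicle library. Pgam2 (-0.73 and -0.28) was under 2-fold in both, Tmod4 was near 0 in ATRA+agonist (0.01) and lower in DMSO vehicle barcodes (-1.33), and Mylk2 had 0 and 1 UMIs in slow barcodes. The interval of Casq1, counted as lower, included 0 in both libraries, and so did that of Tmod4 in the DMSO vehicle library. The list medians were -3.28 and -2.99.

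Of the isoform-neutral genes used to find the barcodes, 2 were at least 2-fold apart between slow and fast barcodes in both libraries. Ckm was lower in slow barcodes (-1.52 and -1.12) and Cox6a2, a heart and muscle subunit of cytochrome c oxidase, was higher (1.24 and 1.24). Among embryonic and heart isoforms, Myh3, Myh8, Myh6 and Tnni3 had no UMI in any fiber-rich barcode, which allows up to 7.83 CPM in the ATRA+agonist library and 25.7 CPM in the DMSO vehicle library for a count of 3, and Tnnt2 and Myl4 had at most 6. The exception was Actc1, the cardiac actin that muscle also makes during development, at 243 CPM (196 to 297) and 1252 CPM (1057 to 1472), a log2 ratio of -2.37 (-2.76 to -1.98). Its 93 and 146 UMIs lay in 21 and 17 fast barcodes and in no slow one.

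Over the 264 ATRA+agonist fiber-rich barcodes, the genes most like the slow troponin share by Spearman correlation, among 623 genes detected in at least 20% of them, were Myoz2 (rho = 0.37), Pla2g12a (0.37), Idh2 (0.34), Fabp3 (0.29) and Ankrd2 (0.28). The most opposed were Aldoa (-0.35), Eno3 (-0.32), Mylpf (-0.31), Ckm (-0.31) and Gapdh (-0.28), of which Aldoa, Eno3 and Gapdh are glycolytic enzymes. The same genes had rho values from 0.12 to 0.63 and from -0.34 to -0.48 over the 83 DMSO vehicle barcodes. Barcodes of a library share the 2 pooled mice and differ in depth, and the values describe these barcodes. The slow share was 0 in 246 of the 264. The 20% limit left out genes of the slow barcodes such as Tpm3, Myl2 and Myl3, found in 5.30%, 6.82% and 14.0% of the ATRA+agonist barcodes. Idh2, the mitochondrial isocitrate dehydrogenase, stood at 1862 CPM in slow and 251 in fast ATRA+agonist barcodes, and Aldoa at 2223 and 15641.

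Fast barcodes led by Myh2 and by Myh4 also differed in genes outside the members. Over both libraries together, 19 barcodes were led by Myh2 and 100 by Myh4 with at least 3 myosin UMIs. At least 2-fold apart were 29.5% of 1851 genes. Of the fast-program genes, Pvalb had 1 UMI in Myh2-led and 967 in Myh4-led barcodes (log2 -7.84, -13.1 to -5.35), Actn3 had 4 and 554 (-5.03, -6.91 to -3.67), and the fast myosin-binding protein Mybpc2 had 0 and 235, at least 18.5-fold lower. The fast troponins were nearer to each other, at -0.19 for Tnnt3, -0.46 for Tnni2 and -0.36 for Tnnc2.

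Several oxidative and slow-program genes were higher in the Myh2-led barcodes. Mb stood at 9246 CPM there and 1554 in Myh4-led barcodes (2.57, 2.34 to 2.81), Fabp3, a carrier of fatty acids, at 3480 and 480 (2.86, 2.45 to 3.27), and Myoz2 had 66 UMIs and none. By library, Mb stood at 9693 and 6781 CPM and Myoz2 at 1681 and 1654 CPM in Myh2-led barcodes. Other genes rested on few barcodes or on 1 library. All 163 Myl3 UMIs lay in 6 of the 16 ATRA+agonist barcodes, 98 of them in 1, and the 3 DMSO vehicle barcodes had none. All 23 Myl2 UMIs lay in 3 ATRA+agonist barcodes, 16 of them in 1. Csrp3 was higher by 5.47 (4.01 to 7.41) from 42 and 4 UMIs, and by 6.78 with tied barcodes counted as Myh2-led, since a tied barcode held 87 Csrp3 UMIs. Ankrd2 was higher by 4.47, whereas the ratio of Sln (2.63) was 1.01 (-0.83 to 2.59) without the barcode with most of its UMIs. Tpm3 was at 0 in both, and Tnnt1 had 33 UMIs in Myh2-led barcodes, of which 32 lay in the single barcode described above.

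To follow members outside the fiber-rich barcodes, cells were assigned to classes by fixed markers within the study's limits on genes, mitochondrial and hemoglobin transcripts, and 9 classes with at least 50 cells in each library were compared. Fiber RNA set free during digestion can enter the droplet of any cell, which is background to a low level of a member. Member UMIs summed to 203 CPM (193 to 213) in 2485 ATRA+agonist endothelial cells and 23.1 CPM (20.01 to 26.5) in 2354 of the DMSO vehicle, a log2 ratio of 3.14 (2.92 to 3.35). The isoform-neutral list, which holds no member, stood beside it at 2.86 (2.67 to 3.05). Fibro-adipogenic progenitors (FAPs) stood at 72.7 and 48.3 CPM (0.59, 0.44 to 0.74), smooth muscle or pericytes at 96.8 and 13.4 (2.85), monocytes or macrophages at 112 and 37.6 (1.58), and B cells at 69.5 and 9.74 (2.84, 1.46 to 4.72, from 275 and 4 UMIs). Tenocytes went the other way, at 29.0 and 69.4 (-1.26, -1.82 to -0.73), but with each cell thinned to 1000 UMIs the ratio was -0.61 (-1.92 to 0.52) and its interval included 0. In 3 classes the interval included 0: muscle stem cells (MuSCs) at 44.4 and 45.6 (-0.04, -0.54 to 0.46), glial cells at 28.1 and 22.7 (0.30, -0.49 to 1.08) and T cells at 23.3 and 11.3 (1.04, -0.21 to 2.57). The isoform-neutral list did not follow the members in every class. It stood at 0.88 (0.55 to 1.22) in smooth muscle or pericytes and -0.19 (-0.44 to 0.06) in tenocytes. Elsewhere it stood at 0.73 (FAPs), 1.48 (monocytes or macrophages), 2.60 (B cells), 0.15 (MuSCs), -0.51 (glial cells) and -0.05 (T cells).

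**Figure D4:**
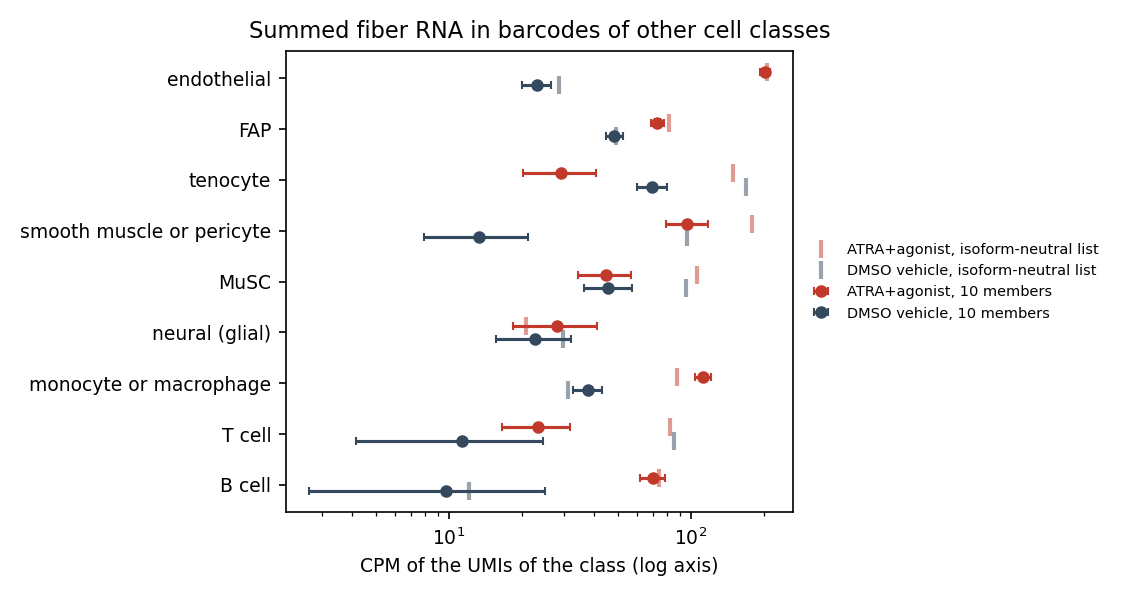
Summed level of the 10 members (points with exact 95% Poisson intervals) and of the isoform-neutral list (vertical ticks) in cells of each class outside the fiber-rich barcodes, in CPM of the class on a log axis, for both libraries. The endothelial points stand at 203 CPM (ATRA+agonist) and 23.1 CPM (DMSO vehicle), whereas those of MuSCs nearly coincide at 44.4 and 45.6 CPM.

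By member, all 10 were at least 2-fold higher in ATRA+agonist endothelial cells, where 4.37% of all genes were. In smooth muscle or pericytes this held for 4 of 4 members with at least 10 UMIs (4.05% of genes), in monocytes or macrophages for 5 of 6 (3.75%), in B cells for 3 of 4 (8.44%), in T cells for 2 of 3 (8.84%), in FAPs for 3 of 9 (2.42%) and in MuSCs for 1 of 4 (4.92%), Tnni2 with 8 and 3 UMIs. In tenocytes 4 of 6 were at least 2-fold lower (7.9% of genes) and in FAPs 1 of 9, Myh2 (4.99%). Among the members so counted, the interval included 0 for Myh2 in endothelial cells (7 and 3 UMIs) and for Tnnt1 and Tnnt3 in T cells. It also did for Tnni2 in B cells and MuSCs and for Tnnc1 in monocytes or macrophages and tenocytes. Neither of the 2 members tested in glial cells was 2-fold apart, whereas 9.14% of genes were. A few cells held much of this RNA: the 5 cells with the most member UMIs held 38.4% of them in ATRA+agonist endothelial cells and 78.2% in B cells. Without those 5 cells in each class and library, the ratios were 2.76 in endothelial cells, 0.32 in FAPs, 0.93 in monocytes or macrophages, 1.35 in smooth muscle or pericytes and -0.71 in tenocytes. Without cells holding over 1% isoform-neutral UMIs the ratio was 2.00 in endothelial cells, and with a gate of 5 markers at 10 times any other class it was 0.55 in monocytes or macrophages. The libraries were made once each, so that the treatment and the library cannot be told apart here.

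The members were then set against other fiber genes. Per UMI of Acta1 and Ckm, chosen as the comparison after the data had been seen, Tnnc2, the fast calcium sensor, stood in endothelial cells at 1.0 times (0.904 to 1.11) its fiber-rich level in the ATRA+agonist library and at 1.14 times (0.842 to 1.53) in that of the DMSO vehicle. Of 90 pairs of a member and a class, 15 exceeded their fiber-rich level at least 2-fold in both libraries with the interval above it, 13 of them of slow and 2 of fast members. With all 10 isoform-neutral genes as the comparison 7 pairs did, all of Tnnt1 or Tnni1. The same call was met by 97.3% (B cells), 97.5% (T cells), 98.8% (glial cells), 98.9% (smooth muscle or pericytes), 99% (tenocytes, monocytes or macrophages), 99.1% (MuSCs), 99.2% (endothelial cells) and 99.6% (FAPs) of all genes per Acta1 and Ckm UMI. Per isoform-neutral UMI it was met by 97.1% (T cells), 97.3% (B cells), 98.8% (tenocytes, glial cells), 98.9% (smooth muscle or pericytes, monocytes or macrophages), 99% (MuSCs), 99.2% (endothelial cells) and 99.4% (FAPs), whereas 15 and 7 of the 90 member pairs met the 2 calls. Fiber-rich barcodes were chosen for a high share of these same comparison genes. Most genes that fibers do not favor therefore meet the calls by the rule, and these shares are no yardstick for the members. The fiber-rich level of the slow members rested on the 9 and 6 slow barcodes for 92.2% and 99.3% of its UMIs. A single barcode of each library held 46.6% and 51.8% of them. The intervals of the folds cover counting error only and leave out this dependence. Genes of the isoform-neutral list, named here after their values were seen, were themselves found in other cells: of the list's UMIs in tenocytes, Cmya5 made 69.8% and 73.7%, and of those in ATRA+agonist MuSCs, Ttn made 44.1%.

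**Figure D5:**
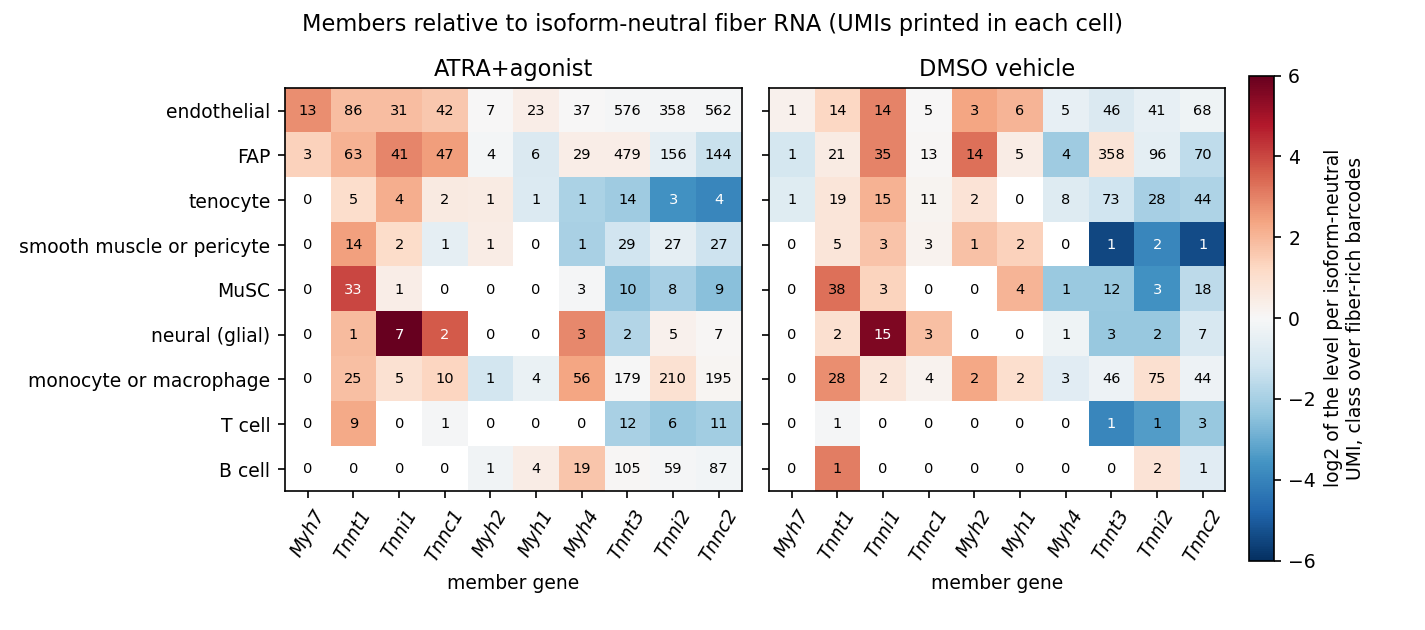
Level of each member per isoform-neutral UMI in each cell class over that in the fiber-rich barcodes of the same library, as color on a log2 scale, ATRA+agonist left and DMSO vehicle right, with the member's UMIs printed in each cell. Tnnt1 in MuSCs (33 and 38 UMIs) and Tnni1 in glial cells (7 and 15 UMIs) stand above the fiber-rich level in both libraries.

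Tnnt1 was the member with the most UMIs in MuSCs. It was detected in 27 of 177 ATRA+agonist (15.3%, 10.3 to 21.4) and 27 of 223 DMSO vehicle MuSCs (12.1%, 8.13 to 17.1), with 33 and 38 UMIs, at most 4 in a cell, and 22.9 and 21.9 CPM. In endothelial cells 0.926% and 0.595% had a UMI at median depths of 3143 and 3390 UMIs, against 7535 and 6827 in MuSCs. After thinning each cell to 1000 UMIs the shares were 2.27% (0.623 to 5.72, 4 of 176 cells) and 1.79% (0.491 to 4.53, 4 of 223) in MuSCs. In endothelial cells they were 0.411% (0.188 to 0.778) and 0.136% (0.0280 to 0.396), with intervals that overlap in the ATRA+agonist library. Smooth muscle or pericytes stood at 1.32% and 0.327% and monocytes or macrophages at 1.02% and 0.562%. Their intervals overlap those of MuSCs in both libraries. Of the DMSO vehicle neutrophils, a class not compared, 1.82% (2 of 110) had a UMI. Among MuSCs without a UMI of Acta1 or Ckm the share was 14.4% (9.34 to 20.8) and 12.2% (8.13 to 17.4). Of the 27 and 27 MuSCs with Tnnt1, 13 and 12 held no other fiber UMI. Where the Tnnt1 UMIs came from was not tested. Per Acta1 and Ckm UMI the level was 88.9 times (50.1 to 160) and 72.6 times (40.1 to 135) that of fiber-rich barcodes, from 23 and 19 such UMIs. Endothelial cells also exceeded it, at 3.81 times (2.97 to 4.84) and 3.20 times (1.68 to 5.63). The other members were sparse in the same cells, Tnni1 with 1 and 3 UMIs, and the fast troponins with 8 to 10 UMIs in ATRA+agonist and 3 to 18 in DMSO vehicle MuSCs.

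Tnnt3 was the most widely detected member in FAPs. It was found in 264 of 1351 ATRA+agonist FAPs (19.5%, 17.5 to 21.8) and 244 of 1553 of the DMSO vehicle (15.7%, 13.9 to 17.6), whereas Tnnc2, which matched it in fiber-rich barcodes, was found in 40 and 25. Among FAPs with no Acta1 or Ckm UMI the shares were 18.5% (16.4 to 20.8) and 15.5% (13.7 to 17.5) for Tnnt3 and 1.89% and 1.09% for Tnnc2. Of the 264 and 244 FAPs with Tnnt3, 137 and 165 held no other fiber UMI. In endothelial cells without Acta1 or Ckm UMIs, Tnnt3 was found in 2.01% and 1.16%. FAPs were deeper, with medians of 9745 and 7961 UMIs. After thinning each cell to 1000 UMIs the Tnnt3 shares were 2.91% (2.08 to 3.96) and 3.03% (2.24 to 4.01) in FAPs. Those in endothelial cells were 1.64% (1.15 to 2.27) and 0.587% (0.313 to 1.002). The thinned intervals of FAPs and endothelial cells overlap in the ATRA+agonist library but not in the DMSO vehicle library. Monocytes or macrophages stood at 2.22% and 0.749%, smooth muscle or pericytes at 2.19% and 0.327% and tenocytes at 0.641% and 2.11%. B cells stood at 1.96% and at none of 73. In the ATRA+agonist library the intervals of all these classes overlap that of FAPs, and in the DMSO vehicle library those of tenocytes and B cells do. Per Acta1 and Ckm UMI, Tnnt3 in FAPs stood at 2.24 times (1.97 to 2.55) and 4.86 times (4.04 to 5.85) its fiber-rich level. The share was 17.7% and 17.6% in FAPs with Pi16 and 17.5% and 16.7% in those with Cxcl14 as their only marker of the 3 tested, and 5 of 41 and 6 of 72 cells with Gdf10 only had a Tnnt3 UMI. The gene Prr33, which overlaps Tnnt3 on the opposite strand, was found in 215 and 204 FAPs and in 0 and 1 endothelial cells. Whether reads from Prr33 were counted under Tnnt3 was not tested.

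Tnni2 was also found in monocytes or macrophages. With ATRA+agonist it was found in 85 of 603 of these cells (14.1%, 11.4 to 17.1), and with DMSO vehicle in 45 of 542 (8.30%, 6.12 to 10.95). Without Acta1 or Ckm UMIs the shares were 11.8% and 6.97%, against 1.13% and 1.16% in endothelial cells and, for Tnnc2 in the same monocytes or macrophages, 5.05% and 1.84%. Of the 85 and 45 monocytes or macrophages with Tnni2, 45 and 31 held no other fiber UMI. After thinning each cell to 1000 UMIs, Tnni2 was found in 2.22% (1.19 to 3.76) and 1.87% (0.902 to 3.42) of monocytes or macrophages and 1.32% (0.888 to 1.90) and 0.678% (0.380 to 1.12) of endothelial cells, and the intervals overlap in both libraries. Per Acta1 and Ckm UMI it stood at 2.12 times (1.78 to 2.51) and 2.96 times (2.15 to 4.06) its fiber-rich level, but per isoform-neutral UMI at 1.87 and 1.92 times, under 2-fold. The gene between Tnni2 and Tnnt3 on the same strand, Lsp1, looked up after these values were seen, lies 16398 bases past the end of Tnni2 and 3968 bases before the start of Tnnt3. Lsp1 stood at 605 and 518 CPM in monocytes or macrophages and 222 and 183 CPM in FAPs, against 1.75 and 2.84 in endothelial cells. It also stood at 251 and 367 CPM in T cells and 309 and 290 CPM in B cells. There Tnni2 was found in 5 of 245 and 1 of 78 T cells and in 21 of 613 and 2 of 73 B cells. Tnnt3 was found in 5 and 1 of these T cells and in 20 and 0 of these B cells. Whether reads from Lsp1 were counted under its neighbors was not tested.

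Tnni1 was rare. In glial cells it was found in 4 of 172 with ATRA+agonist and in 13 of 314 with DMSO vehicle (2.33% and 4.14%), and in FAPs in 23 and 29 cells (1.70% and 1.87%). Per Acta1 and Ckm UMI the glial level was 171 times (50.4 to 576) and 120 times (52.4 to 273) that of fiber-rich barcodes, from 7 and 15 UMIs of Tnni1 and as many of Acta1 and Ckm, and the FAP level 13.2 times (9.03 to 18.9) and 22.5 times (14.2 to 35.02). Tnnt1 in monocytes or macrophages, with 25 and 28 UMIs, stood at 3.92 times and 10.7 times. Per isoform-neutral UMI, the Tnni1 pair in glial cells was no longer called without the 5 cells with the most member UMIs. That in tenocytes was lost in that setting and after thinning each cell to 1000 UMIs, whereas that in FAPs was called in both. The Tnnt1 pair in monocytes or macrophages was lost after thinning. The myosins gave no such pair in either comparison, and single cells held most of what they showed: 43 of the 56 Myh4 UMIs of ATRA+agonist monocytes or macrophages lay in 1 cell, and 13 of the 14 Myh2 UMIs of DMSO vehicle FAPs lay in another.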

How the data were processed

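Single-cell suspensions of 2 libraries were profiled with 10x Genomics 3′ HT v3.1 chemistry, and, per the study's methods, the authors aligned reads with Cell Ranger 7.2.0 to mm10. The values they deposited are raw UMI counts per gene and barcode with no normalization, and 0 table columns lacked a sample. How reads shared by similar genes were counted was not given in the sources used here. The members and lists were chosen with earlier results of these data known.

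From the counts, fiber-rich barcodes were taken over all barcodes (at least 20 UMIs and 5% of UMIs from 10 isoform-neutral genes). Slow barcodes had at least 50% slow troponin UMIs of at least 10, and leading myosins were read at 10 or more UMIs. Other cells passed the study's limits (300 to 5000 genes, under 20% mitochondrial and under 0.25% Hbb UMIs) and were gated on 3 markers at 4 times any other class, with at least 50 cells per library, and no doublet caller was run. Sums over barcodes were compared as CPM ratios, genes with 10 UMIs were tested at 2-fold, and a count of 0 was set at 3 UMIs for bounds. Intervals (95%; Poisson, Clopper-Pearson, conditional binomial or, per fiber UMI, conditional on a table of 4 counts, all exact) cover counting error only, and depth and barcode numbers set their width. With 1 library per group no test was run. All members were named, list genes were named as examples of their counts, and the 5 genes at each end of the correlation with slow troponin share were named. Ratio code was tested on simulated data. Python 3.11.15, numpy 2.4.6, scipy 1.17.1, pandas 2.3.3 and matplotlib 3.10.9 were used. Alternatives covered thresholds, lists, weighting, scaling, gates and barcodes left out.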

Additional observations from a re-analysis of the deposited data

Results flagged for a closer look

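Results are listed here because the libraries differed in RNA of the members outside the fiber-rich barcodes in some cell classes and in the opposite direction or not in others. The differences between classes were not tested, and each class is 1 library per group. As log2 ratios of ATRA+agonist over DMSO vehicle, all members together stood at 3.14 in endothelial cells, 0.59 in FAPs, 2.85 in smooth muscle or pericytes, 1.58 in monocytes or macrophages and 2.84 in B cells, against -1.26 in tenocytes, where thinning each cell to 1000 UMIs gave -0.61 with an interval that included 0.

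Tnnt3, fast troponin T, stood at 3.69 in endothelial cells, 0.35 in FAPs, 5.21 in smooth muscle or pericytes (29 and 1 UMIs), 1.80 in monocytes or macrophages and -1.12 in tenocytes. In B cells it had 105 and 0 UMIs, which with 3 UMIs in place of 0 gives a lower bound of 1.86. Tnni2, fast troponin I, stood at 3.17 in endothelial cells, 0.63 in FAPs, 4.10 in smooth muscle or pericytes (27 and 2 UMIs), 1.33 in monocytes or macrophages and -1.96 in tenocytes. Tnnc2, fast troponin C, stood at 3.09 in endothelial cells, 0.97 in FAPs, 5.10 in smooth muscle or pericytes (27 and 1 UMIs), 1.99 in monocytes or macrophages, 3.18 in B cells (87 and 1 UMIs) and -2.19 in tenocytes.

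Barcodes that entered no comparison also held member UMIs. Per UMI that was not hemoglobin, the log2 ratio was 2.03 in red blood cell barcodes, from 590 and 611 UMIs, and 1.21 in barcodes within the study's limits that no marker gate took, from 1806 and 977 UMIs. Barcodes outside the limits that were neither red blood cell nor fiber-rich went the other way, at -0.45 (-0.58 to -0.33). They held 702 and 1856 member UMIs, and a single DMSO vehicle barcode held 1326 of the 1856.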

How the results depend on the processing

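Of 320 recomputed values, 217 stayed within their interval or, for counts, within 1.5 times, 91 moved and 12 turned direction, and the cause was not tested. Values are given as ATRA+agonist and DMSO vehicle. With a 10% threshold, fiber-rich barcodes numbered 69 and 27, the slow share was 6.28% and 2.90%, and the myosin shares were 5.78% and 2.11% (Myh7), 6.27% and 9.86% (Myh2), 14.9% (Myh1, ATRA+agonist) and 73.0% (Myh4, ATRA+agonist). The log2 ratio turned to 1.60 for Myh7, 0.93 for Tnnt1, 1.12 for Tnni1, 0.95 for Tnnc1, -0.51 for Myh2 and 0.14 for Myh4. With a 2% threshold the DMSO vehicle values were 4.88% (slow share), 5.48% (Myh7), 39.7% (Myh1) and 50.8% (Myh4), and the Myh1 ratio turned to -0.83. Without Acta1 and Ckm in the list (1% threshold), barcodes numbered 72 and 23, the slow share was 4.57% and 7.40%, slow barcodes made 6.94% (ATRA+agonist), and myosin shares were 4.86% (Myh7, ATRA+agonist), 13.8% and 3.74% (Myh2), 30.8% and 52.2% (Myh1) and 50.6% and 37.6% (Myh4). Ratios turned to 0.16 (Tnni1), -1.63 (Myh1) and 0.50 (Tnni2). With a minimum of 5 UMIs in that list, the slow share was 3.61% and 7.91%, Myh4 54.7% and 42.1%, Myh1 46.8% (DMSO vehicle), and the ratios of Myh1 and Tnni2 turned to -1.24 and 0.36. With equal weight per barcode the slow share was 3.56% and 7.28%, Myh2 16.3% and 10.6%, Myh1 33.9% and 21.8%, and Myh4 46.6% and 60.1%. Without barcodes holding Myog, Mymk or Mymx the slow share was 1.59% and 2.82% and Myh7 1.71% and 3.43%. Without the 5 deepest barcodes they were 1.57% and 3.22%, and 1.78% and 4.26%. Without the deepest slow barcode they were 1.56% and 2.75%, and 1.70% and 3.34%. Within the study's limits, 34 DMSO vehicle barcodes remained, with a slow share of 4.64%. With Acta1 and Ckm as the comparison, 15 pairs of member and class were called in place of 7.

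The minimum of 5 UMIs, the deepest slow barcode, the minimum of 3 myosin UMIs, the 5 cells with the most member UMIs, the treatment of tied myosins, the Myh2-led barcode left out and both comparisons per fiber UMI were chosen after seeing the data. Over the alternatives, 2 to 3 members were past 2-fold, 4 to 5 classes had more member RNA in the ATRA+agonist library, and slow barcodes made 3.1% to 6.94% and 2.94% (within the study's limits) to 14.3%. No paired analysis was possible because each group was a single library. The 9 and 6 slow barcodes and 411 DMSO vehicle myosin UMIs limit what can be told of slow and myosin genes.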

Other observations

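Values that entered no comparison between groups concern neutrophils, of which 27 (ATRA+agonist) and 110 (DMSO vehicle) were gated, under the minimum in the ATRA+agonist library. Tnnt1 was found in 10 of the 110 DMSO vehicle neutrophils, with 20 UMIs, and in 1 of the 27.

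An ATRA+agonist barcode of 97778 UMIs and 7745 genes, outside the study's limits, held 95 Tnni2 and 92 Tnnc2 UMIs beside 3 of Tnnt3, 9 of Tnnt1 and 2 of Tnni1. It held 90 UMIs of smooth muscle or pericyte markers. In fiber-rich barcodes of that library Tnnt3 had 11342 UMIs against 11317 of Tnnc2.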
